A study of Bos taurus with 34 samples.

Results

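The 8 miRNAs described here are rich in liver and were followed in the cell-free fraction of blood of dairy cows: bta-miR-122, bta-miR-192, bta-miR-194, bta-miR-193a-3p, bta-miR-193a-5p, bta-miR-193b, bta-miR-148a and bta-miR-885. They were chosen by name, as miRNAs known from liver, but with earlier results of these data known. They are 8 of the 800 miRNA names in the count files. Some cows had subclinical endometritis (SCE), in which the lining of the uterus is inflamed but no outward sign is seen, and the others were healthy. Status was set by endometrial cytology and biopsy, and the study asked whether circulating miRNAs can tell the statuses apart. Blood was taken from the same cows at an early and a late sampling, which the labels call day 25 and day 45 and the design text 21 and 44 days after calving. The sample is serum in the labels but plasma in the design text. The groups were SCE cows at day 25 (n = 11), healthy cows at day 25 (n = 5), SCE cows at day 45 (n = 11) and healthy cows at day 45 (n = 6). For healthy cow 3 the 2 files were the same and bore the day-45 title, so no day-25 value of this cow was used.

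miRNAs are short RNAs that pair with messenger RNAs and lower their translation or stability. They are found in blood cells and, bound to proteins or held in vesicles, outside cells, where those of the liver are used as markers of that organ. The roles that follow are known mainly from human and mouse. miR-122 is the dominant miRNA of hepatocytes and acts on lipid and cholesterol metabolism. miR-192 and miR-194 are transcribed together and are rich in the epithelium of liver, intestine and kidney. miR-148a is abundant in liver and is also made by many other cells. miR-193a and miR-193b share a family and restrain growth in several cell types. miR-885 lies within a gene for a calcium pump and is known from human liver.

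Total counts ranged from 678389 to 28872153 per library. miR-486, a miRNA of red blood cells, took a median of 10.8% of counts in SCE and 45.3% in healthy cows at day 25, and 36.5% in SCE and 48.0% in healthy cows at day 45. The 3 red blood cell markers, miR-486, miR-451 and miR-144, were counted in every library and together made up 4.22 to 79.4% of counts in SCE and 24.9 to 81.7% in healthy cows at day 25. At day 45 they made up 4.17 to 53.7% in SCE and 15.2 to 73.1% in healthy cows. Nearly all of this sum was miR-486, and at day 25 the medians of miR-451 were 0.498% in SCE and 0.387% in healthy cows and those of miR-144 0.0120% in SCE and 0.00562% in healthy cows. Levels below are in CPM, counts scaled to a common library size, adjusted by TMM, a method that sets most miRNAs equal between libraries. The numbers in the library titles do not overlap between statuses, so status and any preparation order that went by these numbers cannot be told apart.

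miR-192 was by far the most abundant of the 8, and miR-122 was scarce. Over the 33 libraries the median level was 30585 CPM for bta-miR-192 and 6253 CPM for bta-miR-148a, which ranked 5 and 21 among all names by mean CPM. The next were bta-miR-194 at 65.1 CPM and bta-miR-193b at 36.3 CPM. bta-miR-122 followed at 7.18 CPM, at rank 194, so the miRNA that dominates hepatocytes stood far below the miRNAs that liver shares with other tissues. Whether the miR-192 and miR-148a reads came from liver was not tested. The lowest medians were 5.73 CPM for bta-miR-193a-3p, 2.86 CPM for bta-miR-885 and 1.40 CPM for bta-miR-193a-5p. Neighbours in this order were clearly apart at the top, with miR-192 above miR-148a in 32 of 33 libraries and miR-148a above miR-194 in 33. They were less apart below it, with miR-194 above miR-193b in 24 libraries and miR-122 above miR-193a-3p in 19, so the order of miR-122 and miR-193a-3p is not settled by these libraries. Adapter ligation favours some miRNAs over others, so the order is one of reads.

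**Figure D1:**
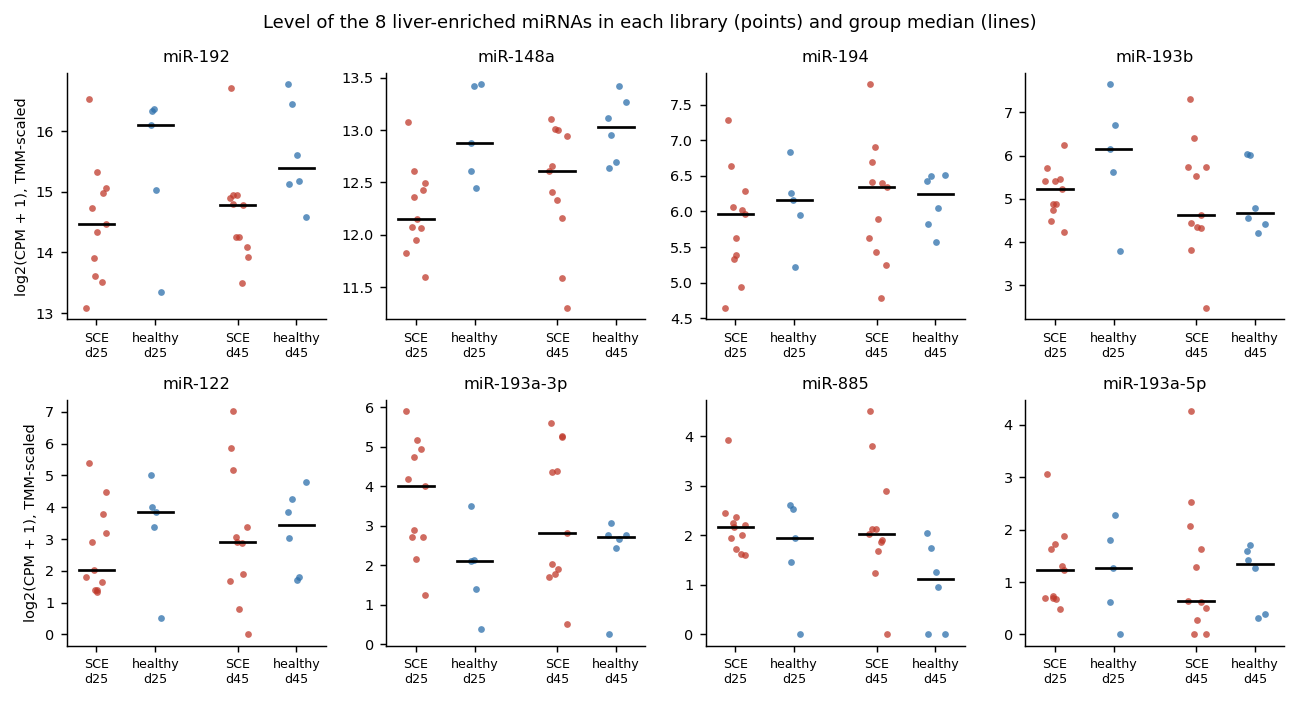
Level of each of the 8 miRNAs in each library, as log2 of TMM-scaled CPM plus 1, with SCE and healthy cows at day 25 and then at day 45; lines are group medians and each panel has its own axis. miR-193a-3p reached 59.2 CPM in SCE and 10.3 CPM in healthy cows at day 25, and miR-148a lay lower on this scale in most SCE cows than in healthy cows.

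As a group the 8 miRNAs took about the same part of all counts, those of miR-486 included, in both statuses. Their summed share at day 25 was 4.18 ± 2.68% of counts in SCE (SD, n = 11) and 4.50 ± 2.83% in healthy cows (SD, n = 5). At day 45 it was 4.72 ± 4.61% in SCE (SD, n = 11) and 4.82 ± 2.47% in healthy cows (SD, n = 6). The differences of -0.318 and -0.101 percentage points were small beside the spread between cows, and leaving out single cows turned their sign. With miR-486 left out of the totals the day-25 difference was -3.37 percentage points. miR-192 was the largest part by its median, at 2.81% in SCE and 4.05% in healthy cows at day 25, although miR-148a was larger in healthy cow 4 at that day.

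Some of these miRNAs have near-copies whose reads could be split between names. The RefSeq annotation (assembly ARS-UCD2.0, not the build of the files) places MIR148A over MIR148D and MIR194-1 over MIR194B. Counts of miR-148d were a median of 96.0% of those of miR-148a (range 76.8 to 98.7% over 33 libraries), and counts of miR-194b-3p were 36.3% of those of miR-194 (range 18.6 to 47.4%). miR-148a and miR-194 are therefore uncertain as single names, since how reads that match several names were handled is not stated. MIR192 neighbours MIR194-2, while MIR194-1 neighbours MIR215, which makes a miRNA closely related to miR-192. miR-215 was counted at a median of 18.3% of miR-192 (range 9.35 to 39.0%). The log2 ratio of miR-215 to miR-192, chosen after the values were seen and given without a test, was -2.18 ± 0.32 in SCE (SD, n = 11) and -2.83 ± 0.47 in healthy cows (SD, n = 5) at day 25. At day 45 it was -2.35 ± 0.48 in SCE (SD, n = 11) and -2.69 ± 0.38 in healthy cows (SD, n = 6).

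At day 25 no member passed the test between statuses. In cell-free blood, more cells that release a miRNA and more release per cell cannot be told apart. All 8 passed the filter on low counts, and 0 of the 8 had an edgeR adjusted p under 0.05, where 1 of all 372 miRNAs tested did (0.269%). At an unadjusted p under 0.05 stood 3 of the 8, against 20.2% of all tested, a background beside which 3 of 8 says little of the members. miR-193a-3p was the higher one in SCE cows, and miR-193b and miR-148a were the lower ones. The median log2 fold change of the 8, SCE over healthy, was -0.40, against -0.05 over all miRNAs tested, and without healthy cow 5 it was -0.022, against -0.013. DESeq2, run as an alternative, called 1 of the 8, miR-193a-3p, and 2.68% of the 522 miRNAs that received an adjusted p.

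bta-miR-193a-3p, the 3′ arm of the miR-193a hairpin, had a lowest level of 1.36 CPM, a median of 15.0 CPM and a highest of 59.2 CPM in SCE cows at day 25. In healthy cows 1, 2, 4, 5 and 6 its levels were 1.64, 3.28, 0.295, 10.3 and 3.36 CPM, and the level of cow 4 rests on 2 counts. Of the 11 SCE cows, 6 lay above every healthy cow and 10 above the healthy median, while the other 5 overlapped the healthy ones. The log2 fold change of bta-miR-193a-3p was 2.24 with SE 0.81 (95% interval 0.55 to 3.93, edgeR adjusted p = 0.185). With DESeq2 it was 2.23 (adjusted p = 0.0498). bta-miR-193a-5p, the other arm of that hairpin, had a log2 difference of 0.07 (SE 0.77, 95% interval -1.52 to 1.66), at a median of 1.36 CPM in SCE and 1.40 CPM in healthy cows.

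bta-miR-193b, which is made with miR-365 from a shared locus, lay at 17.6, 36.3 and 74.6 CPM (lowest, median, highest) in SCE cows at day 25. In healthy cows 1, 2, 4, 5 and 6 the bta-miR-193b levels were 103, 70.2, 12.8, 199 and 48.4 CPM. Healthy cow 5 was the highest of all, and healthy cow 4 was below every SCE cow, so the groups overlapped. The log2 fold change of bta-miR-193b was -1.26 with SE 0.45 (95% interval -2.21 to -0.32, edgeR adjusted p = 0.185). Without healthy cow 5 it was -0.71. In bta-miR-148a the SCE cows lay at 3095, 4532 and 8643 CPM (lowest, median, highest). The healthy cows 1, 2, 4, 5 and 6 had bta-miR-148a levels of 5564, 6253, 11077, 7529 and 10947 CPM. Of the 11 SCE cows, 8 lay below every healthy cow, and the log2 fold change was -0.76 with SE 0.30 (95% interval -1.39 to -0.13, edgeR adjusted p = 0.185). Scaled by library totals alone the value of bta-miR-148a turned to 0.20.

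The other liver miRNAs had intervals that spanned 0 at day 25. bta-miR-192 lay at 8655, 22685 and 95077 CPM (lowest, median, highest) in SCE cows. In healthy cows 1, 2, 4, 5 and 6 bta-miR-192 had 33491, 82333, 10400, 70655 and 84326 CPM, so 4 healthy cows were above the SCE median and 1 was below it. Its log2 fold change was -0.97 with SE 0.51 (95% interval -2.04 to 0.09). bta-miR-194, its cluster partner, was nearly level, with a log2 fold change of -0.18, SE 0.41 and a 95% interval from -1.05 to 0.68. The hepatocyte miRNA bta-miR-122 lay at 1.52, 3.11 and 41.2 CPM (lowest, median, highest) in SCE cows, and at 13.4, 15.3, 0.442, 31.1 and 9.52 CPM in healthy cows 1, 2, 4, 5 and 6. The level of bta-miR-122 in healthy cow 4 rests on 3 counts, and its log2 fold change of -0.61 with SE 0.79 has a 95% interval from -2.25 to 1.02. For bta-miR-885 the log2 fold change was 0.50 (SE 0.66), at a median of 3.51 CPM in SCE and 2.86 CPM in healthy cows.

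**Figure D2:**
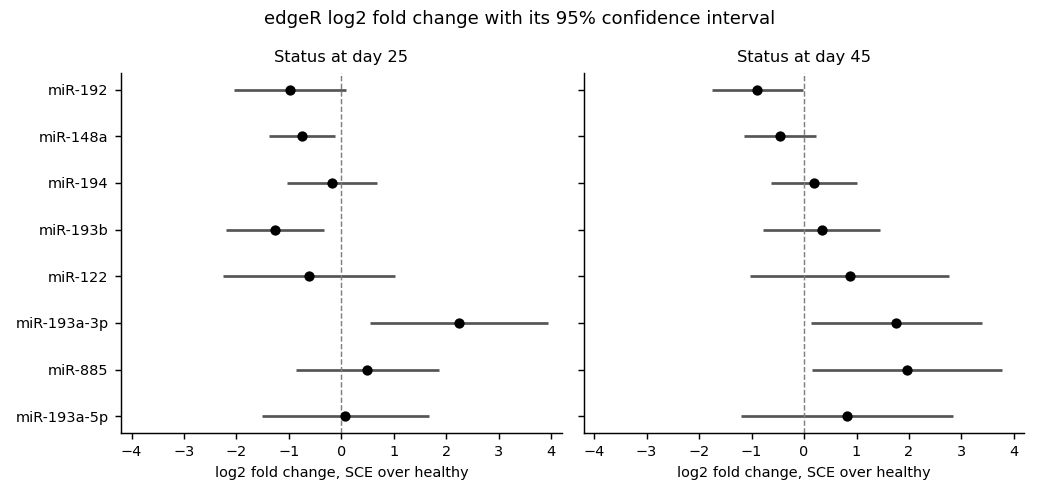
edgeR log2 fold change of SCE over healthy cows for each of the 8 miRNAs at day 25 and at day 45, with bars for the 95% confidence interval and the miRNAs in order of their median level. miR-193a-3p lies above 0 at both days (2.24 and 1.76), and the direction of miR-193b, miR-122 and miR-194 is not the same at the 2 days.

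At day 45 again no member passed. Of the 8 tested, 0 had an edgeR adjusted p under 0.05, and 0 of all 382 miRNAs tested did (0%). At an unadjusted p under 0.05 stood 39 of all tested (10.2%) and 3 of the 8, with miR-193a-3p and miR-885 higher and miR-192 lower in SCE cows. DESeq2 called none of the 8, and 0.134% of the 749 miRNAs that received an adjusted p. The median log2 fold change of the 8 was 0.57, against 0.11 over all miRNAs tested. Without SCE cow 10 it was 0.13, against 0.11, and without SCE cow 9 it was 0.32, against 0.083.

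bta-miR-193a-3p lay at 0.413, 5.98 and 47.3 CPM (lowest, median, highest) in SCE and at 0.184, 5.56 and 7.35 CPM in healthy cows at day 45. Of the 11 SCE cows, 5 lay above every healthy cow, and the others were mixed with the healthy ones. SCE cow 10 was among the 5, and its 19.5 CPM rest on 15 counts. The log2 fold change of bta-miR-193a-3p was 1.76 with SE 0.79 (95% interval 0.13 to 3.39, edgeR adjusted p = 0.460). bta-miR-885, a liver miRNA at the low end of the scale, lay at 0, 3.06 and 21.9 CPM in SCE and at 0, 1.18 and 3.12 CPM in healthy cows. It was not counted in 1 SCE and 2 healthy libraries of day 45, where a count of 0, taken as up to 3 counts of the library total, allows up to 0.248 CPM in the SCE library and up to 0.552 and 0.478 CPM in the healthy ones. Again 5 SCE cows lay above every healthy cow, and the log2 fold change of bta-miR-885 was 1.96 with SE 0.88 (95% interval 0.15 to 3.77, edgeR adjusted p = 0.460). Among the 5, SCE cows 12 and 13 were just above the highest healthy cow, at 3.37 and 3.38 CPM. The bta-miR-885 level of SCE cow 10, 13.0 CPM, rests on 10 counts.

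bta-miR-192 lay at 11519, 28279 and 108002 CPM (lowest, median, highest) in SCE and at 24645, 43525 and 112166 CPM in healthy cows at day 45. Of the 11 SCE cows, 5 were below every healthy cow and 0 above every one. The log2 fold change of bta-miR-192 was -0.89 with SE 0.42 (95% interval -1.76 to -0.02, edgeR adjusted p = 0.460), close to its value at day 25. Scaled by library totals alone the value of bta-miR-192 was -0.16 at day 25 and -0.056 at day 45. bta-miR-148a, with a log2 fold change of -0.45 and SE 0.33, lay at a median of 6254 CPM in SCE and 8394 CPM in healthy cows. bta-miR-122 was spread widely, from 0 to 130 CPM in SCE and from 2.31 to 26.4 CPM in healthy cows, with a log2 fold change of 0.87 and SE 0.92. Its highest level was in SCE cow 10, whose libraries were the shallowest, and rests on 100 counts, and without that cow the log2 fold change of bta-miR-122 was 0.074. For bta-miR-194, bta-miR-193b and bta-miR-193a-5p the log2 fold changes were 0.19, 0.33 and 0.81, with SE 0.40, 0.54 and 0.98. Without SCE cow 10, whose bta-miR-193a-5p level of 18.2 CPM was the highest and rests on 14 counts, the value of bta-miR-193a-5p was 0.054.

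With the counts of each cow summed over both days, 0 of the 8 had an edgeR adjusted p under 0.05, where 1 of all 418 miRNAs tested did (0.239%). At an unadjusted p under 0.05 stood 4 of the 8 and 16.5% of all tested. The log2 fold change was 1.92 with SE 0.56 for bta-miR-193a-3p (edgeR adjusted p = 0.161), 1.37 with SE 0.61 for bta-miR-885, -0.87 with SE 0.38 for bta-miR-192 and -0.54 with SE 0.25 for bta-miR-148a. DESeq2 called bta-miR-193a-3p, at 1.85 (adjusted p = 0.0193), and 5.24% of the 286 miRNAs that received an adjusted p. With edgeR bta-miR-193a-3p was called once SCE cow 7 was left out (2.03, adjusted p = 0.0423), and bta-miR-192 was called once SCE cow 9 was left out (-1.25, adjusted p = 0.0334). SCE cow 9 had the highest bta-miR-192 level of the SCE cows at both days, at 95077 and 108002 CPM. As each cow was left out, the edgeR adjusted p reached 0.303 for bta-miR-193a-3p and 0.383 for bta-miR-192. The other 4 had log2 fold changes between -0.37 and 0.48.

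Ratios of 2 members within a library do not depend on how libraries are scaled, though the 2 added to each count weighs more where counts are few. The widest difference was that of miR-193a-3p and miR-193b at day 25, the members with the highest and the lowest log2 fold change at that day. The log2 ratio of their counts, with 2 added to each, was -3.35, -1.92 and 0.51 (lowest, median, highest) in SCE cows, and -5.76, -4.35, -4.48, -4.26 and -3.64 in healthy cows 1, 2, 4, 5 and 6. Every SCE cow lay above every healthy cow. The lowest SCE ratio, in cow 7, rests on 9 and 110 counts, and the highest healthy one, in cow 6, on 12 and 173. That of SCE cow 10 rests on 2 and 26 counts. The means were -1.50 ± 1.35 in SCE (SD, n = 11) and -4.50 ± 0.77 in healthy cows (SD, n = 5), a difference of 3.0. No p is given for it, because the pair was chosen with the day-25 fold changes of both known. That choice favours a wide separation in these same cows, and leaving out cows does not undo it. As each cow was left out the difference ran from 2.69 to 3.21. At day 45 the groups overlapped, with a mean of -1.97 ± 1.95 in SCE (SD, n = 11) and -2.99 ± 1.37 in healthy cows (SD, n = 6), and the difference was 1.02 (exact permutation test, two-sided, p = 0.272). The healthy mean was thus nearer to the SCE mean at day 45 than at day 25.

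**Figure D3:**
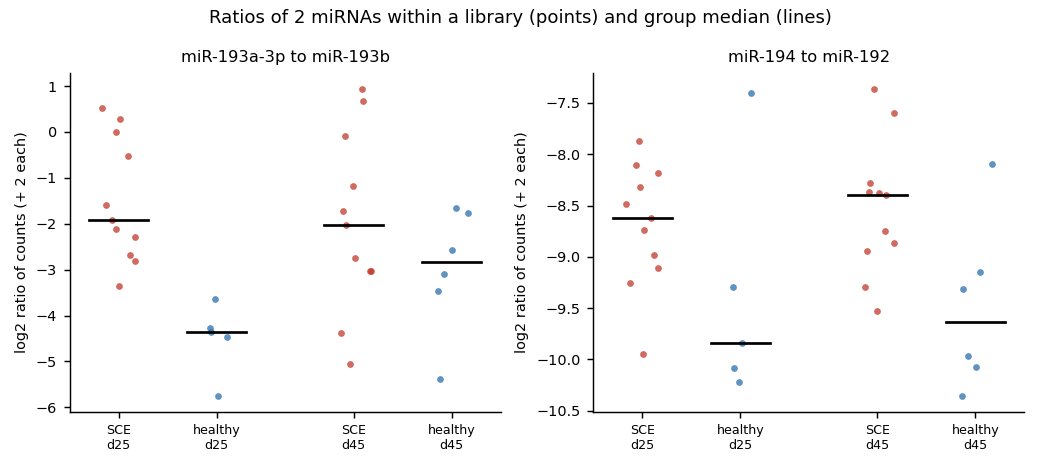
log2 ratio of miR-193a-3p to miR-193b and of miR-194 to miR-192 in each library, with SCE and healthy cows at day 25 and then at day 45; lines are group medians. For the first ratio at day 25 the lowest SCE cow (-3.35) lies above the highest healthy cow (-3.64), and for the other ratio the groups overlap at both days.

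miR-194 relative to miR-192, its neighbour at MIR194-2 but not at MIR194-1, was higher in SCE cows at both days without passing adjustment. The log2 ratio at day 45 was -8.53 ± 0.66 in SCE (SD, n = 11) and -9.49 ± 0.83 in healthy cows (SD, n = 6), a difference of 0.97 (exact permutation test, two-sided, p = 0.0194, adjusted p = 0.136 over the 7 tests of ratios left when miR-193a-3p to miR-193b at day 25 is taken out). At day 25 it was -8.69 ± 0.60 in SCE (SD, n = 11) and -9.37 ± 1.15 in healthy cows (SD, n = 5), a difference of 0.68 (exact permutation p = 0.139). Leaving out some single cows took the difference past the threshold. Without healthy cow 4, the highest healthy ratio of day 25 at -7.41, the day-25 difference was 1.17 (exact permutation, adjusted p = 0.0256). Without healthy cow 3, the highest of day 45 at -8.10, the day-45 difference was 1.25 (exact permutation, adjusted p = 0.0160). Leaving out other cows weakened it. Without healthy cow 6, at -10.2 on day 25, the day-25 difference was 0.46 (exact permutation, adjusted p = 0.463). Without healthy cow 5, at -10.4 on day 45, the day-45 difference was 0.79 (exact permutation, adjusted p = 0.346). Adjusted over all 8 tests as planned, that pair included, p at day 45 was 0.0776, and 0.0420 without SCE cow 13 (exact permutation), against 0.0734 over the 7 tests. For miR-122 relative to miR-192 the differences were 0.24 at day 25 and 0.62 at day 45, and for miR-193a-3p relative to miR-193a-5p they were 1.94 and 1.14 (exact permutation, lowest of the 4 p = 0.105).

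Several SCE libraries rich in miR-193a-3p held little miR-486. The log2 ratio of miR-486 to miR-23a, used as a measure of red blood cell RNA, had a median of 5.57 in SCE and 9.69 in healthy cows at day 25, and 8.49 in SCE and 10.3 in healthy cows at day 45. The ratio also moves with miR-23a, whose level is not given here. The other red blood cell markers were less apart, with a median of 3539 CPM in SCE and 5344 CPM in healthy cows for bta-miR-451 at day 25. For bta-miR-144 it was 87.5 CPM in SCE and 142 CPM in healthy cows. As shares of counts, the day-25 medians of miR-451 and miR-144 were higher in SCE cows, the other way from miR-486. Among the SCE cows of day 25, cows 16, 15, 17 and 12 had the highest miR-193a-3p levels, and in these miR-486 took 4.06, 8.72, 4.04 and 6.26% of counts. SCE cow 14 had as little miR-486, at 4.0%, with 6.37 CPM of bta-miR-193a-3p. Over the 11 SCE cows at day 25 the level of bta-miR-193a-3p and the miR-486 ratio had a Pearson r of -0.63 (permutation p = 0.0360) and a Spearman rho of -0.75 (permutation p = 0.00955). Adjusted over the 18 relations computed, these p-values were 0.147 and 0.0573, and without the 2 cows farthest from the median ratio r was -0.41. At day 45 r was -0.61 (permutation p = 0.0409) and rho -0.47 (permutation p = 0.145), and r without the 2 farthest cows was -0.30. For bta-miR-192 the relation at day 25 ran the other way, with r 0.71 (permutation p = 0.0140, adjusted 0.126) and rho 0.82 (permutation p = 0.00344, adjusted 0.0353), while at day 45 r was -0.46 and rho -0.03. The ratio of miR-193a-3p to miR-193b at day 25 had r -0.78 (permutation p = 0.00566, adjusted 0.102) and rho -0.81 (permutation p = 0.00392, adjusted 0.0353) with the miR-486 ratio, and r without the 2 farthest cows was -0.66.

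With the miR-486 ratio of each library as a covariate, a fit added after the data were seen, the log2 fold change of bta-miR-193a-3p was 0.72 at day 25, 0.36 at day 45 and 0.17 over both days. With miR-451 in the place of miR-486 it was 1.69 at day 25, 1.79 at day 45 and 1.63 over both days. The miR-486 ratio was itself lower in SCE cows by its median at both days, so a fit with it cannot cleanly tell the 2 apart. The part of red blood cell RNA in the difference between statuses was not tested. Markers of other sources had lower median shares of counts than the red blood cell markers. The 7 epithelial markers included miR-215 and miR-200 family members. Their sum had a median of 0.781% of counts in SCE and 0.493% in healthy cows at day 25. At day 45 it was 0.558% in SCE and 0.861% in healthy cows. The highest sums were 3.20% at day 25 and 5.64% at day 45, both in SCE libraries. miR-215 was the largest part by its median, at 0.555% in SCE and 0.378% in healthy cows at day 25. On the TMM scale the order at day 25 was the other way, at 7125 CPM in SCE and 10264 CPM in healthy cows. miR-215 had that order too, at 5060 CPM in SCE and 7881 CPM in healthy cows. The mean levels of miR-200a, miR-200b, miR-200c, miR-141 and miR-429 at day 25 were higher in SCE cows. For miR-200a they were 145 CPM in SCE and 69.3 CPM in healthy cows. The means of miR-375 and miR-215 were lower in SCE cows. For miR-375 they were 954 CPM in SCE and 1273 CPM in healthy cows. Medians did not all follow the means. The medians of miR-141 and miR-429 were lower in SCE cows, and that of miR-375 was higher, at 901 CPM in SCE and 859 CPM in healthy cows. Of the 3 platelet markers, miR-223 is shared with myeloid cells and miR-126-3p with endothelium, so their sum is not one of platelets alone. The 3 markers summed to a median of 0.240% in SCE and 0.0947% in healthy cows at day 25. At day 45 they summed to 0.239% in SCE and 0.0884% in healthy cows. On the TMM scale the sum at day 25 was 1603 CPM in SCE and 1399 CPM in healthy cows. There miR-223 had medians of 1484 CPM in SCE and 717 CPM in healthy cows, and miR-126-3p 97.8 and 43.8 CPM. For miR-199a-3p the order was the other way, at 143 CPM in SCE and 259 CPM in healthy cows. The 4 striated muscle markers summed to at most 0.0618% of counts in any library, and only 2 of them were counted in every library. The part of these sources in the levels was not tested.

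**Figure D4:**
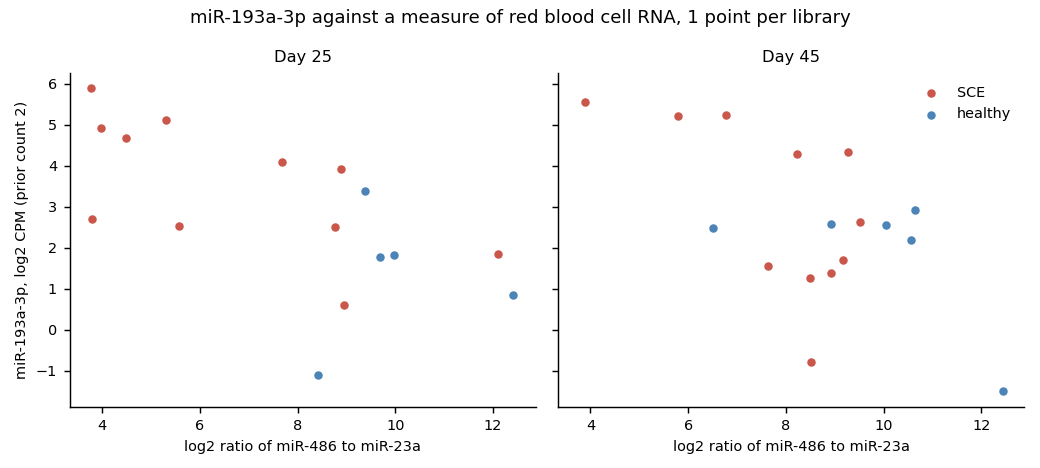
Level of miR-193a-3p (log2 CPM with a prior count of 2) against the log2 ratio of miR-486 to miR-23a, 1 point per library, for SCE and healthy cows at day 25 and at day 45. The SCE libraries with the highest miR-193a-3p lie at low miR-486 ratios, and the healthy libraries lie mostly to the right, at medians of 9.69 and 10.3.

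Between the days no member passed the test in either status. Day 45 against day 25, 0 of the 8 had an edgeR adjusted p under 0.05 in SCE cows and 0 in healthy cows, as did 0 of all 346 (0%) and 0 of all 345 miRNAs tested (0%). DESeq2 also called 0 of all 773 in SCE cows (0%) and 0 of all 695 in healthy cows (0%). At an unadjusted p under 0.05 stood none of the 8 in SCE cows, against 4.05% of all tested, and 1 of the 8 in healthy cows, against 2.90% of all tested. That one was bta-miR-193b in healthy cows, with a log2 fold change of -1.27 and SE 0.58 (edgeR unadjusted p = 0.0421). The difference of the day effect, SCE minus healthy, was tested over 406 miRNAs, and 0 passed (0%) with edgeR and with DESeq2. At an unadjusted p under 0.05 stood 1 of the 8, again bta-miR-193b at 1.53 with SE 0.76, and 1.72% of all tested. With the cow as a block, which pairs the days, 0 of the 8 had an unadjusted p under 0.05 in healthy cows or for the difference, and bta-miR-193b stood at -0.95 in healthy cows and 0.74 for the difference.

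Within cows each member was higher at day 45 in some and lower in others. In healthy cows 1, 2, 4, 5 and 6 the log2 level of bta-miR-193b at day 45 minus day 25 was -0.69, -1.63, 1.05, -1.61 and -1.47, so it was lower at day 45 in 4 of 5 cows. In SCE cows bta-miR-193b was lower at day 45 in 4 of 11 cows, with a median change of 0.18. bta-miR-194 was higher at day 45 in 8 of 11 SCE cows and 1 of 5 healthy cows, with median changes of 0.23 in SCE and -0.39 in healthy cows. bta-miR-148a, an abundant member, differed between the days by -0.85 to 1.41 in SCE and by -0.74 to 0.51 in healthy cows. The scarce members varied more, with differences from -4.29 to 4.29 for bta-miR-122 and from -3.49 to 3.69 for bta-miR-193a-3p in SCE cows. bta-miR-193a-3p was lower at day 45 in 7 of 11 SCE cows, with a median change of -0.68 in SCE and 0.66 in healthy cows.

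**Figure D5:**
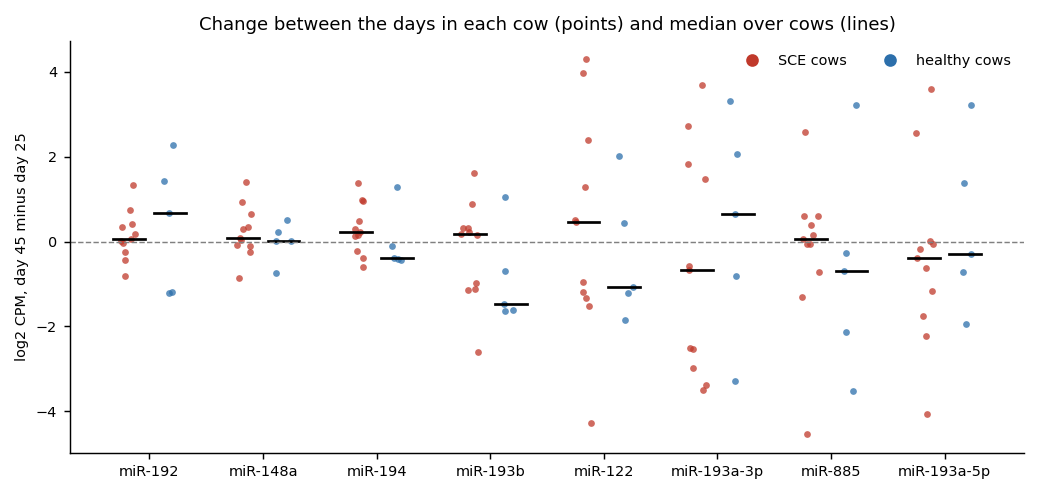
Change of each of the 8 miRNAs between the days in each cow, as log2 CPM at day 45 minus day 25, for SCE and healthy cows; lines are medians over cows. miR-193b lies below 0 in 4 of 5 healthy cows and spreads around 0 in SCE cows, and the scarce miRNAs on the right have the widest spread.

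The 8 miRNAs did not move as a block across libraries. Over the 33 libraries the Spearman rho of log2 CPM, given as a description of libraries that share cows and scaling, ran from -0.43 for miR-193a-3p and miR-148a to 0.63 for miR-122 and miR-193a-5p. miR-122 went with miR-192 at rho 0.58 and with miR-194 at 0.59. miR-192 and miR-194, which are neighbours at MIR194-2 but not at MIR194-1, had a rho of 0.46, and the arms miR-193a-3p and miR-193a-5p one of 0.26. Among all 406 miRNAs compared, the closest to bta-miR-192 were bta-miR-107 at rho 0.91, bta-miR-182 at 0.87 and its relative bta-miR-215 at 0.87. bta-miR-193a-3p was closest to bta-miR-138 at 0.85, bta-miR-497 at 0.84 and bta-miR-30f at 0.81. bta-miR-885 was closest to bta-miR-145 at 0.73, and bta-miR-193b to bta-miR-507-3p at 0.72. bta-miR-122 was closest to bta-miR-194b-3p at 0.73, bta-miR-199c at 0.68 and bta-miR-148c at 0.66, and bta-miR-193a-5p to bta-miR-127 at 0.78. Apart from the overlapping name bta-miR-148d at 0.996, bta-miR-148a was closest to bta-miR-1388-3p at 0.74 and bta-miR-103 at 0.74, and apart from names of its own locus bta-miR-194 was closest to bta-miR-34a at 0.76.

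Relatives of the members, by shared sequence family, shared locus or liver expression, were tested in the same fits. They were miR-215, miR-148b, miR-148c, miR-152, both arms of miR-365, miR-483, miR-101, miR-33a and miR-33b, and 8 of these 10 passed the filter on low counts at each day. At day 25, 0 of the 8 relatives tested had an edgeR adjusted p under 0.05, and 1 had an unadjusted p under 0.05, where 20.2% of all miRNAs tested had one. It was miR-33b, which lies in a gene for a regulator of lipid synthesis, at a log2 fold change of 0.94. At day 45 it was again 0 and 1 of 8, against 10.2% of all miRNAs tested, here miR-365-3p, which is encoded beside miR-193b and beside miR-193a, at 1.53 with SE 0.63. In bta-miR-365-3p the SCE cows of day 45 lay at 8.09, 22.1 and 247 CPM (lowest, median, highest), and the healthy cows at 7.48, 12.4 and 37.0 CPM. Over both days its log2 fold change was 1.14 with SE 0.55. bta-miR-215 had log2 fold changes of -0.31 at day 25 and -0.49 at day 45, with SE 0.54 and 0.50, the same sign as bta-miR-192. bta-miR-148c and bta-miR-152 had equal counts in 30 of 33 libraries and cannot be told apart, and their log2 fold changes were -0.12 at day 25 and -0.11 at day 45.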

How the data were processed

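The deposited files hold counts of reads per mature bovine miRNA, whole numbers with no normalization, 1 file per library and 800 names per file. Per the submitters' processing notes the authors used bcl2fastq 2.17.1.14, the UMD 3.1 build and DESeq2; no aligner or counting tool is given in the sources used. Per the labels' protocols, the TruSeq Small RNA kit was used on 10 to 20 ng of RNA, with 13 or 16 PCR cycles, and no molecular identifiers are named, so limits from counts cover counting error only. Mature sequences are not shown here.

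Totals ranged from 678389 to 28872153 counts in the 33 libraries used. Both files of healthy cow 3 were identical and were used once, at day 45. The main test was the two-sided quasi-likelihood F test of edgeR 4.0.16 (R 4.3.3), with TMM scaling, the tool's own low-count filter and adjustment by Benjamini-Hochberg over every miRNA tested, and a call is an adjusted p under 0.05. SE is the log2 fold change divided by the square root of F. Log2 CPM used a prior count of 2. Ratios were compared with exact permutation tests (scipy 1.17.1), adjusted over the 7 tests other than miR-193a-3p to miR-193b at day 25, an adjustment chosen after seeing the data; the planned one took all 8. Relations used 100000 permutations.

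Alternatives were DESeq2 1.42.0, size factors, library totals alone, miR-486 left out, no filter and a filter at 10 CPM, a covariate for red blood cell RNA, the cow as a block and leaving out each cow. The animal number pairs the days: over the 16 cows with both, deviations correlated at a median r of 0.251, with r over 0.1 in 11. The edgeR procedure was tested on simulated data. Named miRNAs are the 8 members, their listed relatives and, for each member, the 3 closest by Spearman rho. The members and lists were chosen with earlier results of these data known, and miR-148d, miR-194b, miR-194b-3p and the ratio of miR-215 to miR-192 after the values were seen. Samples are 1 per cow and day.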

Additional observations from a re-analysis of the deposited data

How the results depend on the processing

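No member tested was called by edgeR with size factors, with miR-486 left out, with either filter or with a covariate. The filter at 10 CPM left only 6 of the 8 to test between statuses at day 25, 5 at day 45 and 6 over both days. Between the days it left 5 in SCE and 4 in healthy cows. The number called between statuses became 1 with library totals alone and 1 with DESeq2 at day 25 (miR-193a-3p), and 2 with library totals alone (miR-193a-3p and miR-885) and 1 with DESeq2 over both days. As each cow was left out it ran from 0 to 1 over both days. Over all miRNAs at day 25, 1 was called with edgeR, 48 with library totals alone, 14 with DESeq2, 6 without a filter and 4 with size factors. Library totals alone moved the median log2 fold change of all miRNAs to 0.88 at day 25 and 0.71 at day 45. They turned miR-122 to 0.084, miR-194 to 0.65 and miR-148a to 0.20 at day 25, and miR-148a to 0.089 at day 45 and 0.13 and miR-193b to 0.34 over both days. They left miR-193b at -0.46 at day 25, and miR-192 at -0.16 at day 25, -0.056 at day 45 and -0.11 over both days. Relative to that median miR-148a stood at -0.67 and -0.62, miR-192 at -1.04 and -0.76, and miR-193a-3p at 2.23 and 1.91. The miR-451 covariate turned miR-122 at day 25 to 0.043 and miR-194 at day 45 to -0.15. The miR-486 covariate, chosen after seeing the data, turned miR-122 at day 25 to 0.59, and at day 45 miR-194 to -0.12 and miR-193b to -0.024. Leaving out each cow moved miR-194 from -0.40 to 0.045 and miR-193a-5p from -0.46 to 0.76 at day 25, and at day 45 miR-194 from -0.021 to 0.40 and miR-193b from -0.0018 to 0.62. It moved the ratio of miR-122 to miR-192 at day 25 from -0.13 to 0.53, and that of miR-194 to miR-192 from 0.46 to 1.17 at day 25 and from 0.79 to 1.25 at day 45. With the cow as replicate block, 0 members were called and 0 had an unadjusted p under 0.05, and miR-193b in healthy cows was at -0.95, with the difference of its day effect at 0.74. With miR-486 left out of the total, the summed share at day 25 differed by -3.37 percentage points, SCE minus healthy. With miR-486 kept in the total, leaving out each cow moved the difference in summed share from -1.06 to 0.57 at day 25. At day 45 it moved from -1.44 to 0.60. Single cows were not left out of the totals without miR-486. The causes were not tested. Members with few counts, miR-122, miR-193a and miR-885, are limited by depth: a count of 0 allowed up to 0.552 CPM after TMM scaling.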
